A study of Mus musculus with 24 samples.

Results

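The genes that lie within 10 Mb of Il17a on mouse chromosome 1 were compared between IL-17 knockout and wild-type aortas. A gene was a member where its array probe maps to chr1:10724404-30724463 of the build mm9. That interval runs 10 Mb either side of the Il17a probe. Its bounds use positions only, although it was chosen with earlier results of these data known. Measured brightness decided which probe stood for a gene and which members were tested. The mapped position of a probe does not show that its signal comes from there, and the members include ND3, the name of a mitochondrial gene. Of the 34797 gene names on the array, the interval held 71 that were bright enough to be tested and 36 that were not, with 160 probes among them, after 2 names starting with Col were left out. On the rest of chromosome 1, 1316 of 1894 names were tested, and on the whole array 23353.

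The arrays measured total RNA labelled as mouse aorta, in 8 groups of 3 samples each. Wild-type C57BL/6 mice and IL-17 Knockout mice of the same labelled strain drank plain water or 1% NaCl, and each of these received vehicle or BAPN with angiotensin II for 3 days. BAPN blocks the cross-linking of collagen and elastin, and angiotensin II raises blood pressure. Below, the 4 treatment states are vehicle, salt alone, infusion, and salt with infusion. The targeted allele, the age of the animals and the pooling of tissue are not given in the sources used here. The labels do not say that samples came from separate animals, so p-values measure the spread between these samples, which may be technical.

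Il17a and its neighbour Il17f encode secreted cytokines, made mainly by T helper 17 cells and other lymphocytes, that bind a shared receptor on stromal, epithelial and endothelial cells. This stretch of chromosome 1 holds genes of many kinds, among them a subunit of the replicative helicase, proteins of the endoplasmic reticulum, secreted matrix-acting proteins, ion channels and glutathione transferases.

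The probes are oligonucleotides of 60 bases. The first 30 bases are shown for Il17a, the centre of the interval, and for members whose genotype difference was seen in all 4 states. The Il17a probe lies at chr1:20724404-20724463 on the plus strand, Crispld1 at chr1:17755156-17755215 on the plus strand and Tram2 at chr1:20991489-20991548 on the minus strand.
Il17a: gctttactatttgtttatttaaggttctct
Crispld1: atatgtgctttgatacttaaattctgtaaa
Tram2: agaagccttggcatcaaagggggagttcct

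Mcm3 has 2 probes that overlap, at chr1:20793136-20793195 and chr1:20793119-20793178 on the minus strand. They are shown because the genotype comparison differed between them. The first was designed on a RefSeq transcript and the second on a separate cDNA record. They share 43 positions, and 1 of these differs, written A31G: the RefSeq-record probe has A at position 31 counted from its own 5′ end, and the cDNA-record probe has G at the matching place, which is position 14 of its own. Below are the first 30 shared bases of each, with the differing base in capitals.
Mcm3, RefSeq record: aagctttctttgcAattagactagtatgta
Mcm3, cDNA record: aagctttctttgcGattagactagtatgta

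A slide held arrays of 1 genotype only. Slides 1 and 2 carried the 12 knockout samples and slides 3 and 4 the 12 wild-type samples, so genotype and slide cannot be told apart. A fit with slide as a random block, with 1 within-slide correlation (0.485) for all genes, is given beside the genotype results. It cannot separate genotype from slide, since each genotype holds 2 slides of its own. Its p-values treat arrays, not slides, as the units, so passing it does not assign a difference to genotype. Spike-in slopes, which give the response of each array to added RNA of known amount, ranged over 0.932 to 0.981 for the knockout and 0.884 to 0.908 for the wild type. Their part in the results was not tested.

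Il17a and Il17f gave no measurable level in either genotype. The Il17a probe was well above background on 0 of 24 arrays, and its log2 signal, relative to each array's 75th percentile, ran from -7.66 to -5.60 in knockout and from -7.23 to -6.43 in wild type. The Il17f probe was also well above background on 0 arrays. The targeted locus thus gives no check of the genotype labels here. Altogether 36 members were not tested, and 24 of them were well above background on 0 arrays. Members not tested include the transcription factors Tfap2d and Prdm14, the sensory channel Trpa1, the junctional protein Jph1, the adhesion receptor Bai3 and defensin genes.

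Genotype differences were frequent in the interval and frequent everywhere. In vehicle, 34 of 71 tested members passed an adjusted p of 0.05, which is 47.9% beside 37.1% of all genes and 36.3% of the rest of chromosome 1. Of these 9 were higher and 25 lower in the knockout, beside 14.4% and 22.7% of all genes. In salt alone 34 members passed, beside 39.3% of all genes and 37.9% of the rest of the chromosome. Of these 12 were higher and 22 lower, beside 15.8% and 23.5% of all genes. Quantile normalisation moved the split in vehicle to 15 higher and 21 lower. Counts under another normalisation or without an array stand here and below without the share of all genes under that setting. A shift of the members there cannot be told from a shift of all genes.

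In infusion 40 members passed, or 56.3%, beside 46.2% of all genes and 45.1% of the rest of the chromosome. These were 13 higher and 27 lower, beside 19% and 27.2% of all genes, and quantile normalisation gave 15 and 18. Under salt with infusion 26 members passed, beside 28.6% of all genes and of the rest of the chromosome alike. They were 7 higher and 19 lower, beside 10.7% and 17.9%. That count fell to 13 without knockout array 1 of this state, and to 17 and 15 without wild-type arrays 1 and 2. Over the mean of the 4 states 57 members passed, or 80.3%, beside 68.1% of all genes and 69.1% of the rest of the chromosome. That count was 26 higher and 31 lower, beside 31.4% and 36.7% of all genes. In each state more members were lower than higher in the knockout, as were more genes of the whole array. Over the mean of the 4 states the split turned among probes well above background on all 24 arrays. There 24 of 49 members were higher and 14 lower, beside 6794 and 5348 of 18052 genes. Among the 22 dimmer members 2 were higher and 17 lower, beside 539 and 3227 of 5301 genes.

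Large differences made up a greater share of the interval than of the rest of the chromosome, which is a description with no test. The mean difference over the 4 states was larger than 1 on the log2 scale, in either direction, for 31.0% of the 71 members, for 16.2% of the rest of chromosome 1 and for 15.4% of all genes. Among the 5301 genes whose probe was well above background on fewer than 24 arrays, 3227 were called lower in the knockout, so the share was also taken without them. Among probes well above background on all 24 arrays it was 22.4% of 49 members, 8.53% of the rest of the chromosome and 7.43% of all genes. Of those 11 bright members, 2 were higher and 9 lower in the knockout. The median difference of the members was 0.05, beside -0.03 for all genes. Neighbouring identifiers count as separate members in these shares, and whether they report separate transcripts was not tested.

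**Figure D1:**
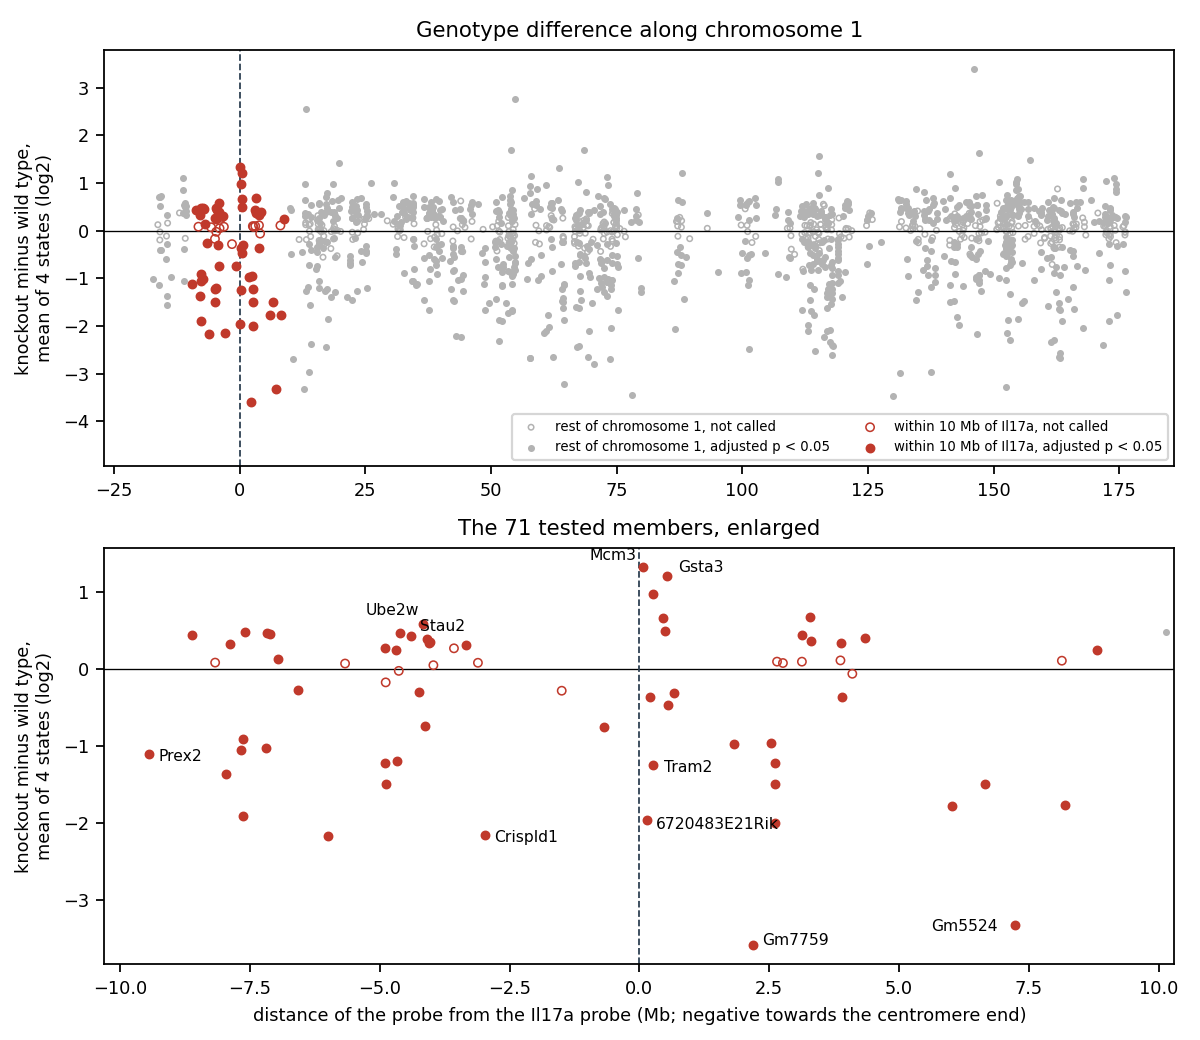
Difference between knockout and wild type (log2, mean of the 4 states) of each tested gene against the distance of its probe from the Il17a probe, for the whole chromosome (top) and the interval (bottom). Red points are members, grey points the rest of chromosome 1, and filled points passed an adjusted p of 0.05. Members lie between -3.59 (Gm7759) and 1.32 (Mcm3), and 57 of the 71 are filled. The size for Gm7759 is uncertain, since it was well above background on 1 of 12 knockout arrays.

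With slide as a random block, 17 members still passed over the mean of the 4 states (5 higher, 12 lower), which is 23.9% beside 19.8% of all genes and 19.0% of the rest of chromosome 1. Per state the counts were 7 in vehicle beside 8.38% of all genes, 6 in salt alone beside 8.76%, 17 in infusion beside 20.8% and 9 of 71 in salt with infusion beside 10% of all genes. The 17 over the mean include Crispld1, Mcm3 (on its cDNA-record probe), Tram2, Stau2, Ncoa2, Prex2 and Ube2w.

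The members are described by role below, and a count over a role is read against the 31.4% of all genes that were higher and 36.7% that were lower over the mean of the 4 states. Among secreted and matrix-acting members Crispld1 was lower in the knockout in each of the 4 states. Crispld1, a secreted protein of the cysteine-rich CAP family, had log2 signals from -3.45 to -2.03 (median -2.58) on the 12 knockout arrays and from -0.87 to -0.07 (median -0.43) on the 12 wild-type arrays. The genotypes did not overlap, and a gap of 1.16 separated the highest knockout array from the lowest wild-type array. The difference was -2.16 ± 0.11 (SE, n = 12 per genotype), a 4.46-fold lower signal, with an adjusted p of 5.1e-12 in limma and 2.6e-05 with slide as a random block. By state it was -1.77 in vehicle, -2.36 in salt alone, -2.68 in infusion and -1.82 in salt with infusion.

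Among the 5 tested genes of this group over the mean of the 4 states, 2 were higher and 2 lower, beside 31.4% and 36.7% of all genes. Pkhd1, which encodes the cilium-associated protein fibrocystin, differed by -0.75 ± 0.13. Sulf1, an extracellular enzyme that removes sulfate from heparan sulfate chains, differed by 0.32 ± 0.11, with both of its probes higher. B3gat2, a glucuronosyltransferase, differed by 0.44 ± 0.17, which turned to -0.26 with normexp background correction, and in vehicle its knockout signal was at least 1.31-fold the wild-type bound. None of Pkhd1, Sulf1 and B3gat2 passed with slide as a random block. Pi15, a CAP family protein next to Crispld1, differed by 0.08 ± 0.13 and did not pass.

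Among genes of replication, telomeres and RNA handling, 3 of 4 tested were higher in the knockout over the mean of the 4 states and 0 lower, beside 31.4% and 36.7% of all genes, and Mcm3, whose probes disagree, is 1 of the 3. Mcm3, a subunit of the MCM helicase that unwinds DNA at replication origins, lies 0.0687 Mb from the Il17a probe. It is represented by the probe with the higher mean over all arrays, that of the cDNA record. On all 12 wild-type arrays the RefSeq-record probe was the brighter, so this choice rests on the knockout arrays. The difference and p-values below are thus not independent of the choice of probe. In vehicle the cDNA-record probe read 0.35, 0.31 and 0.38 in wild type and 1.67, 1.51 and 1.68 in knockout. All knockout arrays were above all wild-type arrays in each of the 4 states, with differences of 1.27, 1.18, 1.43 and 1.41. Groups without overlap, in either direction, were found for 59.2%, 65.5%, 41.4% and 45.4% of all genes in these states. The mean difference was 1.32 ± 0.12, with an adjusted p of 1.8e-08 in limma and 0.0032 with slide as a random block.

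The overlapping RefSeq-record probe of Mcm3 did not show this. It read 0.72, 1.15 and 1.05 in wild type and 0.79, 0.61 and 0.87 in knockout under vehicle, so the groups overlapped. They overlapped in infusion and in salt with infusion as well, while in salt alone the knockout arrays (0.57, 0.57 and 0.50) lay below the wild-type arrays (1.07, 0.97 and 0.94), a difference of -0.45 ± 0.29 that did not pass. Its mean difference over the 4 states was -0.18 ± 0.15, with an adjusted p of 0.298 in limma. The signal of the cDNA-record probe minus that of the RefSeq-record probe, taken within each array, lay between 0.70 and 1.00 on the 12 knockout arrays and between -0.91 and -0.37 on the 12 wild-type arrays. That within-array quantity was 1.50 higher in the knockout (mean 0.84 ± 0.09 against -0.66 ± 0.18, SD, n = 12 each). This is a description with no test, since the pair was chosen after its values were seen and genotype and slide cannot be told apart. Which base the RNA of either genotype carries was not measured here.

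**Figure D2:**
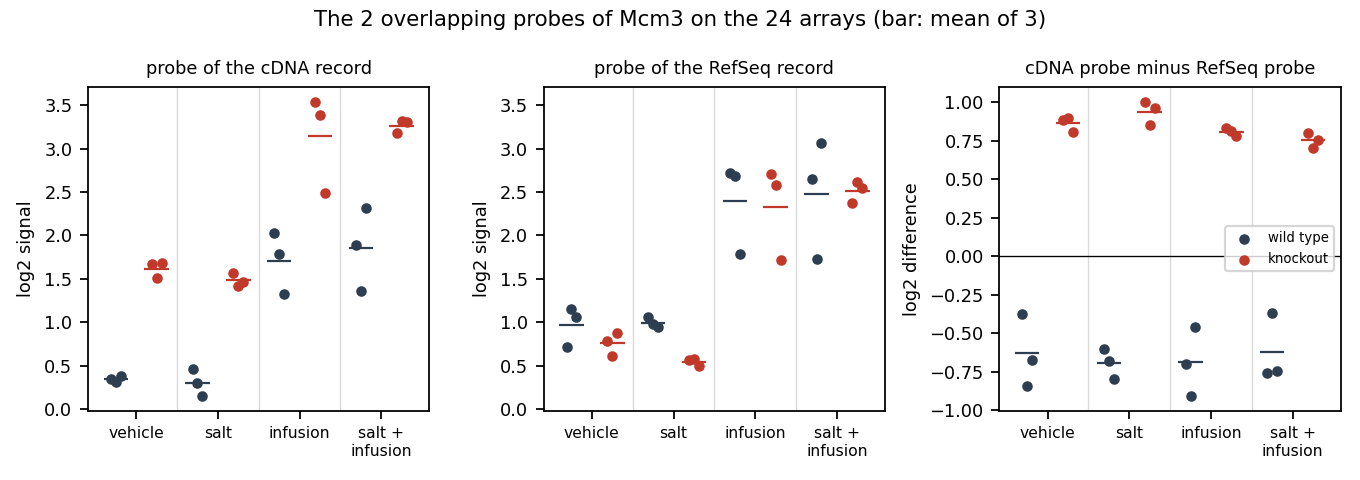
Log2 signal of the 2 overlapping Mcm3 probes on each array (left and middle) and the difference between them within an array (right), by treatment state, with wild type dark and knockout red and a bar at the mean of 3. The genotypes separate on the cDNA-record probe in each state with the knockout above, and on the RefSeq-record probe only in salt alone with the knockout below. The within-array difference lies above 0 on all 12 knockout arrays and below 0 on all 12 wild-type arrays.

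Overlapping probes elsewhere mostly gave the same genotype difference. The array held 1105 same-strand probe pairs that share 15 or more positions, and 153 of them differed in at least 1 base. Where both probes were bright enough, the median gap between their genotype differences was 0.07 over 568 identical pairs and 0.07 over 48 pairs that differ at 1 base. A gap of at least that of Mcm3 was found in 1 of the 568 identical pairs and in 2 of the 48, Mcm3 among them. Only probes whose coordinates span exactly 60 bases were compared, and Mcm3 is the only such pair in the interval.

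Stau2, a double-stranded RNA-binding protein that takes part in RNA transport, had 4 tested probes, all higher in the knockout. The probe at chr1:16335787-16335846, the brightest, differed by 0.43 ± 0.05, and passed with slide as a random block (adjusted p 0.024). The largest difference, 1.48 ± 0.10, came from the probe at chr1:16450410-16450469, which read -3.74 to -3.0 in the knockout and -5.37 to -4.45 in wild type, with no overlap of the genotypes, and was well above background on 14 of 24 arrays. The wild-type arrays of that probe lay at or near background, so the size of its difference is uncertain. The ribosomal protein gene Rpl7 had 1 probe called higher and 1 lower among 4, so its direction is uncertain.

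Among genes of the translocon, the endoplasmic reticulum and organelle membranes, 4 of 6 tested were higher over the mean of the 4 states and 1 lower, beside 31.4% and 36.7% of all genes. Tram2, a translocation-associated membrane protein linked to collagen synthesis, had log2 signals from 0.98 to 2.06 (median 1.43) in knockout and from 2.06 to 3.30 (median 2.88) in wild type. The genotypes did not overlap, by a gap of only 0.0033. The difference was -1.25 ± 0.14, a 2.38-fold lower signal, with an adjusted p of 2.0e-07 in limma and 0.021 with slide as a random block. Its paralogue Tram1, on the other side of Il17a, differed by 0.47 ± 0.11 and did not pass the slide fit. Tmem14a had 1 probe higher, by 0.50, and 1 lower, by -0.37, both past the threshold, so no direction is given for it, although its representative probe is 1 of the 4 counted as higher.

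Ube2w, a ubiquitin-conjugating enzyme that acts on protein amino termini, was the only member with all 12 knockout arrays above all 12 wild-type arrays, at 0.91 to 1.27 against 0.21 to 0.85. The difference was 0.58 ± 0.07, with an adjusted p of 1.7e-06 in limma and 0.048 with slide as a random block. Another Ube2w probe gave 0.59, and the one at chr1:16572015-16572074 gave -0.05 with an adjusted p of 0.497. Tceb1, which encodes elongin C and is now named Eloc, was higher on both of its probes, by 0.38 and 0.47, without passing the slide fit.

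Channel, neuronal and signalling genes included 2 higher and 4 lower members of 8 tested, a share called near the 68.1% of all genes. Prex2, an exchange factor for the small GTPase Rac, read -2.50 to -1.49 in knockout and -1.28 to 0.10 in wild type, with no overlap. It differed by -1.11 ± 0.14, with an adjusted p of 1.4e-06 in limma and 0.040 with slide as a random block. Rims1, a presynaptic scaffold protein, differed by -0.98 ± 0.22, with a wild-type signal at least 1.94-fold above the knockout bound in vehicle, and did not pass the slide fit. It was well above background on 9 of 12 wild-type and 2 of 12 knockout arrays, so the size of its difference is uncertain. The potassium channel gene Kcnq5 and the progestin receptor gene Paqr8 differed by -0.31 and -0.37 over the 4 states, and both turned positive, to 0.15 and 0.085, with quantile normalisation.

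All 3 tested metabolic genes were higher over the mean of the 4 states, beside 31.4% of all genes, and 0 of the 3 passed the slide fit. Gsta3, a glutathione transferase 0.531 Mb from the Il17a probe, read 1.77, 1.51 and 2.21 in knockout and 0.21, 0.98 and 1.20 in wild type under vehicle. These groups did not overlap, as for 59.2% of all genes, and that difference, 1.03 ± 0.49, did not pass. The difference passed in infusion at 2.06 ± 0.49 and over the mean of the 4 states at 1.20 ± 0.24, where the second Gsta3 probe gave the same 1.20. With slide as a random block its adjusted p was 0.11. Rdh10, a retinol dehydrogenase, and Lactb2, a mitochondrial endoribonuclease, differed by 0.47 ± 0.17 and 0.45 ± 0.08, and neither passed the slide fit.

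Ncoa2, a coactivator of nuclear receptors, was higher in each of the 4 states, by 0.58, 0.49, 0.45 and 0.37, and passed the slide fit (0.51, adjusted p 0.029). Eya1, a developmental phosphatase and transcriptional regulator, differed by -0.27 ± 0.05 without passing the slide fit. The succinate dehydrogenase assembly factor gene Sdhaf4, listed on the array as 1110058L19Rik and counted with the organelle genes above, was higher by 0.68 ± 0.11 and did not pass the slide fit either.

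**Figure D3:**
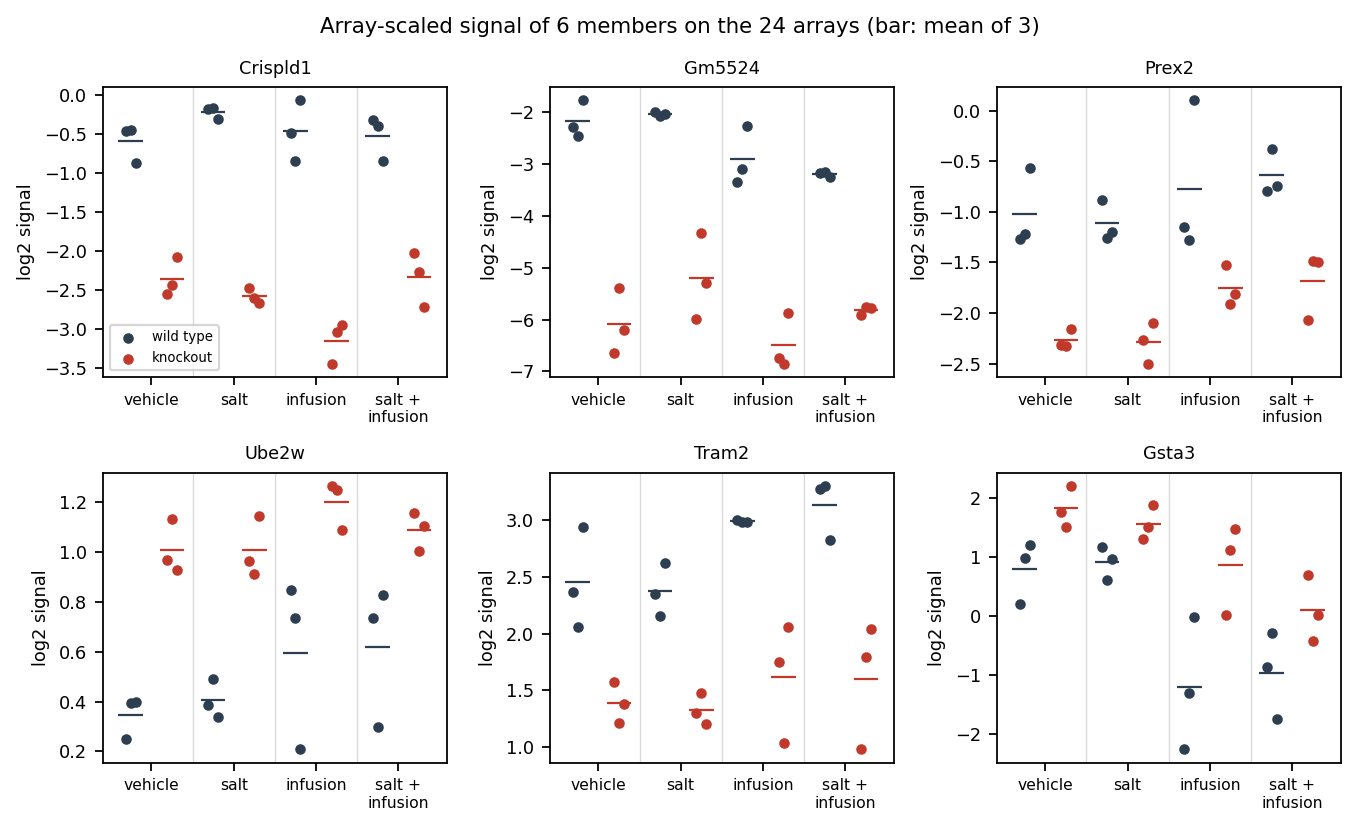
Log2 signal of 6 members on each of the 24 arrays by treatment state, relative to the array's 75th percentile, with wild type dark, knockout red and a bar at the mean of 3 arrays. Crispld1, Gm5524, Prex2 and Tram2 were lower in the knockout in each state, Ube2w was higher in each state, and Gsta3 was higher with overlap of the groups under salt with infusion.

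Some members without an established gene name were near background in the knockout, so that their differences are bounds. Gm5524, 7.23 Mb from the Il17a probe, read -3.35 to -1.77 on the wild-type arrays and -6.85 to -4.33 on the knockout arrays, and was well above background on 12 of 12 and 1 of 12 of them. Its signal was at least 5.25-fold higher in wild type under vehicle, at least 4.02-fold in infusion and at least 3.97-fold in salt with infusion, where the knockout value is a bound set by the lowest signal well above background. It was tested only through the wild type, and it passed the slide fit (adjusted p 9.8e-05), which rests on knockout values near background. Gm7759 read -3.31 to -1.92 in wild type and -7.44 to -5.60 on 11 knockout arrays, while the first knockout array of salt alone read -0.32. Gm7759 was at least 5.15-fold higher in wild type under vehicle and did not pass the slide fit.

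The non-coding transcript 6720483E21Rik, 0.154 Mb from the Il17a probe, was well above background on 12 of 12 wild-type and 2 of 12 knockout arrays. It was tested only through the wild type, so the size of its measured difference, -1.96 ± 0.17, is uncertain. It passed the slide fit (adjusted p 0.0057), which rests on the same knockout values near background. Its wild-type signal was at least 3.48-fold above the knockout bound in salt alone and at least 2.08-fold in infusion. Of the 71 members, 42 carry a RefSeq symbol and 29 another name. A mean difference larger than 1 was found for 23.8% of the 42, beside 9.84% of such names on the rest of the chromosome, and for 41.4% of the 29, beside 27.9%. The excess over the rest of the chromosome was thus seen in both kinds of name, as a description.

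Altogether 5 members were called higher in all 4 states and 15 lower, which is 7.04% and 21.1%. These shares stand beside 5.93% and 11.9% of the rest of chromosome 1 and 5.82% and 13.2% of all genes. The higher ones include Mcm3 (on its cDNA-record probe), Sdhaf4, Ube2w and Ncoa2. Among the 15 lower ones, Crispld1, Prex2 and Tram2 have established names. Called in no state were 20 members, and Ogfrl1 alone was called in both directions, lower in salt alone (-0.36) and higher in salt with infusion (0.39). The interaction of genotype with state was called for 0 members by limma, beside 0.0428% of all genes, and 7 members had an unadjusted p under 0.05. No share of all genes was taken for these 7, or for the members called in no state or in both directions.

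The size of the differences did not fall steadily with distance from Il17a. Within 2 Mb of the Il17a probe 12 of 13 tested members were called (5 higher, 7 lower), with a median size of 0.75. From 2 to 5 Mb 26 of 36 were called with a median size of 0.37, and from 5 to 10 Mb 19 of 22 with a median size of 0.69. The shares called were 92.3%, 72.2% and 86.4%, beside 68.1% of all genes, so that the middle stretch lay near the background. The arrays of the 12 knockout samples lay entirely above or below the 12 wild-type arrays for 11 members (1 above, 10 below), or 15.5%, beside 12.9% of the rest of the chromosome and 13.6% of all genes.

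The labelled tissue was checked against marker genes. All 6 smooth muscle markers (Myh11, Acta2, Tagln, Cnn1, Smtn and Lmod1) and all 6 endothelial markers were well above background on 24 arrays. All 6 smooth muscle markers were lower in the knockout over the mean of the 4 states, with a summed level, relative to the 75th percentile, of 1186 to 1960 in the knockout and 1998 to 2864 in wild type. Of 6 T cell and thymocyte markers 4 were lower, with sums of 2.0 to 6.61 and 3.29 to 8.94. Of 4 tested neutrophil markers 3 were lower, with sums of 67.2 to 117 and 195 to 283. Among neutrophil markers only Csf3r was well above background on 24 arrays, with S100a9 on 21, S100a8 on 20, Cxcr2 on 5 and Ngp on 0. In knockout salt alone 1 of 5 was well above background on all 3 arrays, with sums of 79.8 to 106. The neutrophil sums thus rest on few markers. Of 6 macrophage markers 5 were higher and 1 lower, although their sum was 103 to 165 in knockout and 146 to 223 in wild type. All 5 mesothelium markers were higher in the knockout over the mean of the 4 states, with a median difference of 1.20. By state 5 were higher in infusion (median 2.42), 1 in salt alone, 0 in vehicle and 0 in salt with infusion (median -0.14). Of 6 fibroblast markers 4 were higher and 1 lower, and of 6 endothelial markers 2 were higher and 1 lower. Of 4 tested neuron and Schwann cell markers 2 were lower. Among 4 adipocyte and 3 skeletal muscle markers tested, 0 passed. These differences run with genotype and slide, and their part in the members' differences was not tested. In whole tissue, fewer cells of a type and less RNA per cell cannot be told apart.

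Infusion was compared with vehicle within each genotype. In wild type 19 members passed, or 26.8%, which is near the 26% of all genes and 24.5% of the rest of the chromosome. The wild-type infusion samples all lie on slide 4 and their vehicle samples on slide 3. With slide as a fixed block 0 members passed in this comparison by limma, beside 1.14% of all genes and with 14 members at an unadjusted p under 0.05, and 1 passed with slide as a random block. The 19 were 10 higher and 9 lower in infusion, beside 12.2% and 13.8% of all genes, and normexp gave 7 and 13. The count was 11 without infused array 2 and 33 without infused array 3. In the knockout 28 passed, or 39.4%, beside 30.6% of all genes and 30.4% of the rest of the chromosome, and 15 rose and 13 fell, beside 14.4% and 16.2%, and 16 passed without infused array 1.

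Salt with infusion against vehicle gave 31 members in wild type, or 43.7%, beside 28.7% of all genes and 27% of the rest of the chromosome. Of these 15 rose and 16 fell, beside 13.2% and 15.5%, and 20 and 18 passed without infused arrays 1 and 3. In the knockout 20 passed, or 28.2%, beside 25.6% of all genes and 25.4% of the rest of the chromosome, and 12 rose and 8 fell, beside 12.8% in each direction, where normexp gave 11 and 14. Without infused array 3 the knockout count was 12. In each genotype both comparisons share the vehicle samples. The knockout samples of salt with infusion all lie on slide 2 and their vehicle samples on slide 1. There 25 members passed with slide as a fixed block and 21 with slide as a random block, beside 34.9% and 26.3% of all genes. Only array 3 of infusion in the knockout and array 3 of salt with infusion in wild type tie treatment states across the slides of a genotype, so these block fits rest on few arrays.

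Mcm3 had the largest rise of any tested member in 3 of these 4 comparisons, all but salt with infusion in wild type. On its cDNA-record probe the wild type went from 0.35, 0.31 and 0.38 under vehicle to 2.02, 1.78 and 1.32 in infusion, and the knockout from 1.67, 1.51 and 1.68 to 3.54, 3.39 and 2.50. These are rises of 1.37 ± 0.24 and 1.52 ± 0.24 (adjusted p 7.2e-04 and 2.6e-04 in limma), and with salt the rises were 1.51 and 1.65. The RefSeq-record probe rose by 1.42 in wild type and 1.58 in knockout, so the probes that differed over genotype gave like values over infusion. Mcm2, Mcm4, Mcm5, Mcm6 and Mcm7, the other helicase subunits and no members, rose too in each of the 4 comparisons, from 0.60 (Mcm6, infusion in wild type) to 2.96 (Mcm5, salt with infusion in the knockout). With slide as a fixed block the wild-type rise of Mcm3 in infusion was 0.67 and did not pass (adjusted p 0.238), while the rise in salt with infusion was 1.28 and passed. In the knockout the same fit gave 1.85 and 2.62, and both passed.

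Among matrix-acting members, Sulf1 rose in both genotypes, by 0.87 ± 0.22 in wild type and 0.94 ± 0.22 in knockout under infusion, and by 1.13 and 0.97 with salt. Pi15 fell by 1.09 ± 0.27 in the knockout under infusion, and by 0.98 in wild type and 1.18 in knockout under salt with infusion, while the wild-type infusion value of -0.73 did not pass. Crispld1 fell by 0.79 ± 0.21 in the knockout under infusion and was at 0.13 in wild type. Under salt with infusion it was at 0.02 in the knockout and 0.07 in wild type, and neither passed. The wild-type infusion values of Sulf1 (0.34) and Pi15 (-0.46) with slide as a fixed block did not pass, while Sulf1 passed in the other 3 comparisons, and so did Pi15.

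Gsta3 had the largest fall of any tested member in 3 of the 4 comparisons, all but infusion in the knockout. In wild type it went from 0.21, 0.98 and 1.20 under vehicle to -2.25, -1.31 and -0.01 in infusion, a fall without overlap (35% of all genes had no overlap there). It fell by 1.99 ± 0.49 there and by 1.75 in salt with infusion, and in the knockout by 1.73 in salt with infusion, where the infusion value of -0.96 did not pass (adjusted p 0.152 in limma). The wild-type differences of Gsta3 with slide as a fixed block were -0.81 in infusion and -1.36 in salt with infusion, and neither passed (adjusted p 0.654 and 0.065), while in the knockout salt with infusion gave -2.63 and passed (adjusted p 0.022). Ncoa2 fell in all 4 comparisons, by 0.72, 0.85, 0.57 and 0.78 in the order wild-type infusion, knockout infusion, wild-type salt with infusion and knockout salt with infusion. In the fit with slide as a fixed block Ncoa2 was at -0.62 in wild-type infusion and did not pass (adjusted p 0.179), while the other 3 comparisons passed.

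Other members passed in 1 genotype only, and none of these passed the interaction test. Tfap2b, a transcription factor of neural crest and ductal smooth muscle, read -3.30 to -3.18 under vehicle and -6.92 to -3.53 in infusion in the knockout. It passed there, but only 1 of the 3 infused arrays was well above background, so no size is given. In wild type its difference of -1.37 ± 0.59, with 2 of 3 infused arrays well above background, did not pass. Under infusion Kcnq5 fell by 1.51 ± 0.26 in the knockout, beside -0.64 in wild type, with 2 of 3 infused knockout arrays well above background. Rdh10 rose by 1.15 ± 0.35 in the knockout, beside 0.52 in wild type. Paqr8 rose by 0.88 ± 0.20 in wild type, from -3.59, -3.07 and -4.04 to -2.75, -2.68 and -2.64 without overlap and with 2 of 3 vehicle arrays well above background, beside -0.44 in the knockout. The interaction p of Paqr8 was 0.0021 before and 0.366 after adjustment over all genes.

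**Figure D4:**
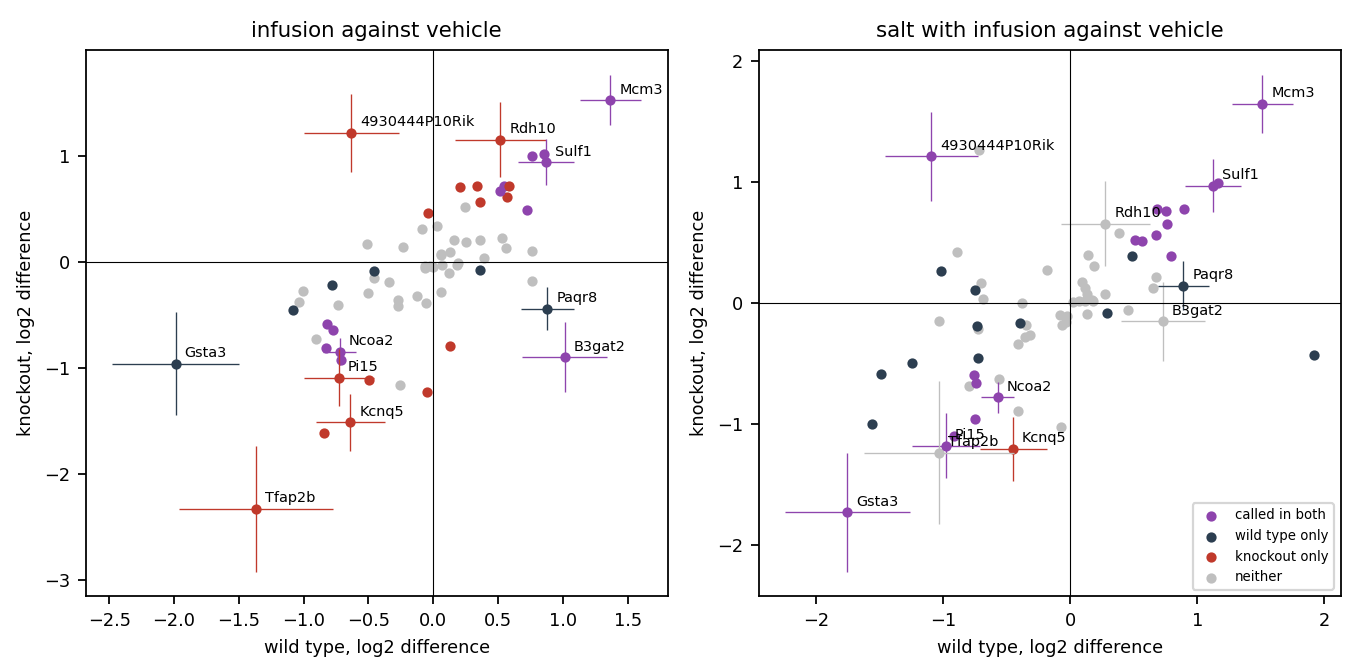
Response of each tested member to infusion (left) and salt with infusion (right) against vehicle, as log2 differences in wild type (horizontal) and knockout (vertical), with error bars of 1 SE on labelled members. Mcm3 and Sulf1 rose in both genotypes, Ncoa2 fell in both, and B3gat2 (left) and 4930444P10Rik (right) lie in quadrants of opposite sign, each with groups not well above background. Purple points passed in both genotypes, dark points in wild type only, red points in the knockout only and grey points in neither.

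Of 6 macrophage markers 5 in wild type and 4 in knockout rose with infusion, beside 12.2% and 14.4% of all genes. Of 6 smooth muscle markers 1 and 3 fell, beside 13.8% and 16.2% of all genes. In wild type this comparison runs with slide, and 1.14% of all genes passed there with slide as a fixed block. The summed macrophage level was 146 to 195 under vehicle and 191 to 223 in infusion in wild type, and 108 to 118 and 130 to 165 in knockout. The summed smooth muscle level was 2199 to 2864 and 1998 to 2317 in wild type, and 1658 to 1960 and 1292 to 1904 in knockout. These sums overlapped between vehicle and infusion, except the macrophage sums of the knockout. Their part in the members' responses was not tested.

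Salt alone gave no call. By limma 0 members passed in wild type and 0 in the knockout, beside 0% of all genes in each, with 3 and 2 members at an unadjusted p under 0.05. The vehicle and salt arrays of the 2 probes of Mcm3 lay close together within each genotype, with differences from -0.21 to 0.02.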

How the data were processed

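The authors deposited scanner output for 24 arrays, 3 per group. It holds for each spot a linear intensity from which background had been subtracted, with no scaling across arrays, per the file headers. The software named there is Feature Extraction 10.7.1.1 and the build mm9, while the submitters' processing notes name 9.5.1.1. The authors' processed intensity values were an alternative, and every column there has nearly the same sorted values, as after quantile normalisation. Flags for spots well above background or outlying, a further deposited kind of column, were used as the authors gave them.

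Spots of a probe were averaged, 2910 outlier spots were left out, and log2 intensity was taken minus each array's 75th percentile (383 to 772 for knockout, 270 to 460 for wild type). Of the spots, 51.1 to 60.8 percent were well above background and 0 saturated. The number of arrays, 3 per group, limits the precision. Testing required a probe well above background in all 3 samples of any group, and the brightest probe stood for a gene. One model with a mean per group was fitted to 24 arrays in limma 3.58.1 under R 4.3.3, with Benjamini-Hochberg adjustment over 23353 genes and a threshold of 0.05, and was tested on simulated data. Fold bounds set a dim group at the lowest signal well above background of each array. RefSeq accessions of GRCm38.p6 gave a current symbol to 57 of 107 members. Replicate numbers come from the source names, and same-numbered samples of both genotypes correlated from -0.11 to 0.45. Samples with different numbers were not compared, so whether the numbers pair samples was not tested, and the main fit used no pairing. Named were Il17a, Il17f, symbols within 1 Mb, members called one way in 3 or more states or seen in 1 genotype only, the 5 largest called genotype differences of each sign per state without overlap, and the 4 largest called infusion responses of each sign, while bare identifiers were named only within 1 Mb or if called in all 4 states. Other members of the role groups, Gm7759, 4930444P10Rik and further probes were added after their values were seen. The members and lists were chosen with earlier results of these data known. Alternatives were quantile, normexp and authors' values, other filters, probe means, a variance trend, slide and replicate blocks, compared groups only, single slides and leaving out each array, the single slides being chosen after seeing the data. A result on 1 member is not reported here. Exons and untranslated regions were not assigned, since no mm9 annotation was used here.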

Additional observations from a re-analysis of the deposited data

Results flagged for a closer look

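For a pair of members the infused arrays lay on opposite sides of the vehicle arrays in the genotypes, and neither difference between the responses passed a test over all genes. The measured means of B3gat2 differed by 1.01 in wild type and -0.90 in the knockout under infusion, a knockout response that was -1.91 relative to wild type (interaction adjusted p 0.461, unadjusted 0.0051, limma). The wild-type vehicle arrays (-4.79, -5.61 and -5.68) and the knockout infusion arrays (-5.75, -4.61 and -4.58) were not well above background, so both are bounds, and the wild-type signal in infusion and the knockout signal in vehicle were higher by at least 1.09-fold and at least 1.37-fold. Each brighter group was itself well above background on 2 of 3 arrays.

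The measured means of the transcript 4930444P10Rik differed by -1.09 in wild type and 1.21 in the knockout under salt with infusion, a difference of 2.31 (interaction adjusted p 0.202, unadjusted 5.2e-04, limma). The wild-type infused arrays of salt with infusion read -4.75, -5.42 and -4.23 and the knockout ones -4.37, -4.85 and -5.21. It was well above background on 11 of 24 arrays and on 0 of the 3 knockout vehicle arrays, which read -6.59, -5.88 and -5.61. The bound for these vehicle arrays, a mean of -4.56, lies above the mean of -4.81 under salt with infusion in the knockout, so no rise and no opposite direction is given.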

How the results depend on the processing

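Numbers of members called are given against the values above. In this section they stand without the share of all genes under the same setting, except where that share is given above. Without it a shift of the members cannot be told from a shift of all genes. With slide as a random block they were 7 in vehicle, 6 in salt alone, 17 in infusion, 9 in salt with infusion and 17 over the mean for genotype, and 1 for infusion in wild type, where slide as a fixed block gave 0. Fits to the compared groups alone gave 17 for genotype in infusion, 2 for infusion in wild type and 14 for infusion in the knockout. Within slide 3, salt with infusion in wild type gave 14. Normexp gave 44 for genotype in salt with infusion (8 higher, 36 lower), and moved the median of all genes to between -0.10 and -0.13 for genotype. Restricting the test to probes bright on all 24 arrays gave 21 in vehicle. Within 2 Mb of Il17a the share called over the mean was 92.3%.

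Leaving out each array gave 13 to 24 members for genotype in salt with infusion (13 without knockout array 1, 15 and 17 without wild-type arrays 2 and 1 of that state), 11 to 33 for infusion in wild type (without infused arrays 2 and 3), 16 to 31 for infusion in the knockout (16 without infused array 1), 18 to 28 for salt with infusion in wild type (18 and 20 without infused arrays 3 and 1) and 12 to 18 in the knockout (12 without infused array 3). The cause was not tested. The replicate block gave 33, 32, 39, 27 and 56 members for genotype in the 4 states and over the mean, and 19 and 25 for infusion and 28 and 19 for salt with infusion in wild type and knockout, and moved no count by 1.5 times. Same-numbered samples deviated with correlations of -0.11 to 0.45, and whether this block is a pairing was not tested.

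Directions reversed over the mean with quantile normalisation and with the authors' values for Gm4956 (0.067 and 0.067), Kcnq5 (0.15 and 0.15) and Paqr8 (0.085 and 0.085). With normexp they reversed for B3gat2 (-0.10 in vehicle, -0.26 over the mean) and BX521359 (-0.45 in salt with infusion, -0.27 over the mean). Probes near background set the limit: 22 of the 71 tested members were well above background on fewer than 24 arrays.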
